A study of Homo sapiens with 9 samples.

Results

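The probesets described here read microRNA genes, and they are those with the higher intensities on a whole-transcript array of breast cancer cells. A gene was included where its symbol in the platform's probe-gene table starts with MIR and a digit, or with MIRLET, and does not end in HG, where the probeset with the highest mean stood for each symbol, and where that mean over all 9 arrays was 5 or more on the log2 scale. MIR23B, MIR27B, MIR24-1, MIR200A, MIR200B, MIR200C, MIR141 and MIR429 were left out by name, and 4 of these 8 reached the threshold. The rule gave 266 genes, 24.8% of the 1072 microRNA genes measured, among 14884 named genes in all. The genes were chosen by this mean intensity, so their levels are given as a description, while differences between the transfections took no part in the choice.

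All arrays held total RNA of ZR-75-1, a single line of estrogen receptor-positive luminal breast cancer cells kept in serum-supplemented RPMI-1640 medium. In the mimic group (3 arrays) the cells received 50 nM of a synthetic copy of mature miR-150-5p, known above all for its role in lymphocytes. In the negative control group (3 arrays) they received 50 nM of a non-specific RNA, and in the mock group (3 arrays) the lipid reagent with no RNA. All 3 groups were exposed to Lipofectamine RNAiMAX and harvested 48 hours after transfection. The RNA was labelled with a FlashTag biotin kit and read on Affymetrix Human Gene 2.0 ST arrays, and the values are log2 intensities after RMA, a background correction, normalization and summary of each probeset. The sources do not say that the triplicates were separate cultures, so p-values measure the spread between these arrays, which may be technical. In RNA from a whole culture, a change in the number of cells of a type cannot be told apart from a change in RNA per cell.

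A microRNA is cut from a hairpin in a longer primary transcript, which is often the transcript of a host gene on the same strand. One or both arms of the hairpin are trimmed to a short mature strand, which an Argonaute protein holds and which pairs with messenger RNAs, mainly through its seed near the 5′ end. MicroRNAs that share a seed are counted as a family. Whether a probeset of this array reads the mature strand, the hairpin or the longer transcript is stated nowhere in the labels, so the values below are those of the probesets. Probes differ in how brightly they read the same amount of RNA, so a higher level of 1 probeset than of another is not a higher abundance.

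RefSeq, assembly GRCh38.p14, held a mature sequence for 241 of the 266 genes and a hairpin for 223. The mature sequences shown first belong to the brightest probesets that had an entry and to MIR604, the 1 gene that passed the test below. They are written 5′ to 3′, and capitals mark the seed (bases 2 to 8).
miR-604: aGGCUGCGgaauucaggac
miR-4737: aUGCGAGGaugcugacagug
miR-5047: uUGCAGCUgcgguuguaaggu
miR-622: aCAGUCUGcugagguuggagc
miR-4442: gCCGGACAagagggagg
miR-570-3p: cGAAAACAgcaauuaccuuugc
miR-574-5p: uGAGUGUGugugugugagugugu
miR-2909: gUUAGGGCcaacaucucuugg
These 8 seeds all differ from one another.

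MIR4737 had the highest mean of the 266, 10.91. It read 10.76, 10.93 and 10.89 on the mimic arrays, 10.64, 10.87 and 10.74 on the negative control arrays, and 11.29, 11.32 and 10.76 on the mock arrays. The other genes among the 12 with the highest means were MIR5047 (9.97), MIR622 (9.21), MIR4442 (9.17), MIR570 (9.04), MIR574 (8.86), MIR2909 (8.78), MIR1299 (8.71), MIR3907 (8.42), MIR3143 (8.23), MIR647 (8.22) and MIR1910 (8.15). Another probeset with the symbol MIR2909 had a mean of 6.15 and another with the symbol MIR4442 a mean of 7.99. The other probeset of MIR574 had the same mean, 8.86. None of these 12 is in the list of epithelial and breast microRNAs used further on.

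The 266 means ran between 5.00 and 10.9 with a median of 5.90, beside 3.40 for all microRNA genes and 5.44 for all genes. A mean of 6 or more was reached by 122 genes, of 7 or more by 47 and of 8 or more by 17. Just inside the threshold stood MIR4468, MIR648 and MIR3164 at 5.00 to 5.01, and just outside it MIR196A2 (4.99), MIR9-1 (4.98) and MIR4632 (4.95). Several probesets carried the same symbol for 41 of the genes, and for 11 of those the next probeset lay under 5. The 266 are therefore the upper end of a continuous range and no separate class.

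Probeset level went with base composition. Over the 884 microRNA genes with a RefSeq hairpin, the share of G and C in the hairpin and the mean log2 intensity had a Spearman correlation of 0.61 (Pearson 0.57). These points share the same 9 arrays and are not independent, so no p is given. Hairpin length had a correlation of 0.01 with the level (Spearman, n = 884). Genes in the set had a median GC share of 58.8% (n = 223), against 45.4% for the dimmer microRNA genes (n = 657).

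The share of microRNA genes that reached the set differed between GC classes. With a GC share under 40% it was 13 of 173 genes (7.51%), and between 40% and 50% it was 37 of 308 (12%). Between 50% and 60% it was 73 of 249 (29.3%), and between 60% and 70% it was 75 of 121 (62.0%). At 70% or more, 25 of 33 genes were included (75.8%). The median level of all microRNA genes in these 5 classes was 2.36, 2.87, 4.13, 5.38 and 6.12, in the order of GC share. Among the 223 genes inside the set the correlation was 0.13 (Spearman). The rule had cut the range of levels there, so this value cannot be set against that over all microRNA genes. The plot of level against GC share shows how few hairpins poor in G and C lie above the threshold.

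**Figure D1:**
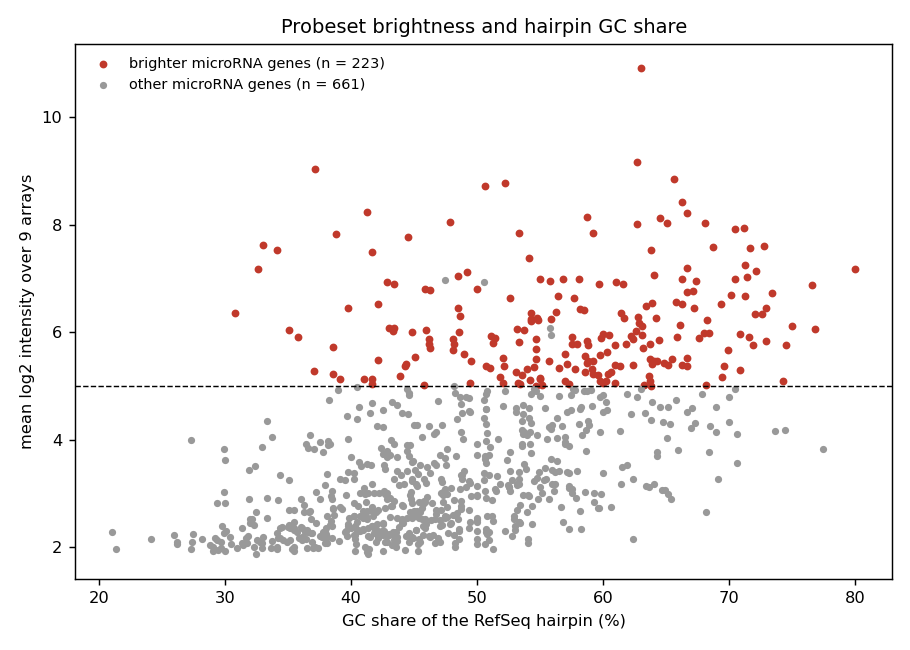
Mean log2 intensity over 9 arrays (y axis) against the GC share of the RefSeq hairpin in percent (x axis), 1 point for each microRNA gene, red for the brighter set (n = 223) and grey for the other microRNA genes (n = 661), which include named genes left out of the set; the dashed line is the threshold of 5. Most points under a GC share of 50% lie below the line, and at 70% or more 25 of 33 are red.

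Hairpins from both ends of that range show the contrast, with the mature arms in capitals. MIR1908 (GRCh38.p14 chr11:61815161-61815240, minus strand) is in the set with a GC share of 80.0% and a mean of 7.18. MIR620 (chr12:116148560-116148654, minus strand) is outside it with a GC share of 21.1% and a mean of 2.29. MIR644A (chr20:34466325-34466418, plus strand) goes the other way, with a GC share of 33.0% and a mean of 7.62.
MIR1908 hairpin: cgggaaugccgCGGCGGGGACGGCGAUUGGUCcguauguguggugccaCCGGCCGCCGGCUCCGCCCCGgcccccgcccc
MIR620 hairpin: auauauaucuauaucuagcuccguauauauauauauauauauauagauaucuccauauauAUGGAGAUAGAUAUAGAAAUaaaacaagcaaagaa
MIR644A hairpin: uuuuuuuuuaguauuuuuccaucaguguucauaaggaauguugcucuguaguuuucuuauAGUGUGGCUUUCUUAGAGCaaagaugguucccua
Other bright probesets over hairpins poor in G and C were MIR570 (37.1%, mean 9.04) and MIR4742 (34.1%, mean 7.53). MIR1237 was an exception of the opposite kind, outside the set at 3.83 with a GC share of 77.5%. Composition is thus a tendency with exceptions on both sides, and its part in the levels was not tested.

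Position inside a host gene was common but was not found for every gene. In RefSeq, 141 of the 266 genes lay within a protein-coding gene or a microRNA host gene known to be on the same strand. For 106 no such gene was found, and for 19 the strand of the microRNA gene itself was not in the sources used. Among the dimmer microRNA genes these counts were 371, 376 and 55. A surrounding gene of unknown strand was not counted as a host, so the 106 and the 376 can include genes that have one. For 88 genes of the set the host had its own probeset, which gave 82 distinct hosts. Over these 88 pairs, the level of the microRNA probeset and that of the host had a Spearman correlation of 0.07. Over the 294 microRNA genes of any level with a measured host it was 0.23. The rule had cut the range of levels in the set, so the value for the 88 pairs alone cannot show that the levels are unrelated. MIR21, for example, read 6.31 while its overlapping host VMP1, an autophagy membrane protein, was among the bright genes of the array at 11.56.

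Replicate arrays of these probesets differed more than those of messenger RNAs. The median SD within groups was 0.219 on the log2 scale for the 266 genes, beside 0.186 for the dimmer microRNA genes, 0.127 for all genes and 0.111 for the 7665 protein-coding genes with a mean of 5 or more. The median SE of a difference between groups was 0.15 for the set and 0.10 for all genes. No test of this gap was run.

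**Figure D2:**
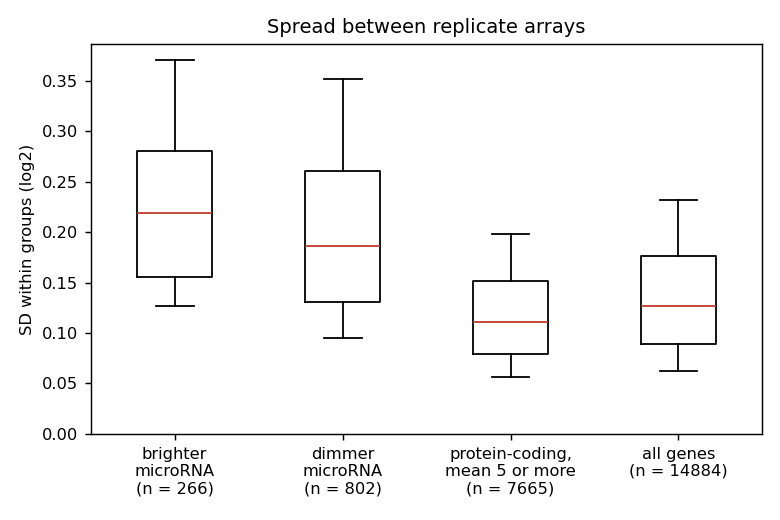
SD within groups on the log2 scale (y axis) for 4 sets of genes (x axis, with the number in each); the line is the median, the box the middle 50% and the whiskers the 10th and 90th percentiles. The brighter microRNA genes have the highest median, 0.219, and the bright protein-coding genes the lowest, 0.111.

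The gene with the largest SD over the 9 arrays was MIR1205 (0.75). It read 3.54, 5.32 and 5.09 on the mimic arrays, 5.94, 5.30 and 5.88 on the negative control arrays, and 4.74, 5.27 and 5.94 on the mock arrays. The lowest of these values came from 1 mimic array, and the groups overlapped. Its mimic-minus-negative-control difference of -1.06 ± 0.45 (SE) was the largest in size among the 266 and did not pass (limma adjusted p = 0.374). The next in SD were MIR3135B, MIR4324, MIR328 and MIR3689F, and in each of them 1 array stood more than a log2 unit from another of its own group.

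Exact repeats of a value between arrays also occurred. A value appeared on 2 or more arrays for 92 of the 266 genes (34.6%), beside 57.1% of all genes. MIR32 read 5.25 on 7 of its 9 arrays and MIRLET7A3 read 6.01 on 6. MIR604 had no repeated value.

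The comparison of mimic with negative control asks what miR-150-5p changes beyond the delivery of a small RNA. Among the 266 genes MIR604 rose and no other gene passed the test. In limma's test, adjusted by Benjamini-Hochberg over all 14884 genes, 1 of the 266 was higher at an adjusted p under 0.05 (0.376%) and 0 were lower. Over all genes the shares were 0.551% in either direction, 0.202% higher and 0.349% lower. At an unadjusted p under 0.05 there were 29 genes of the set (10.9%), against 12.6% of all genes. The share of the set that passed was near that of the whole array.

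MIR604 lies on chromosome 10 (GRCh38.p14 chr10:29545004-29545097, minus strand) within the span of SVIL, the gene of supervillin, an actin-binding protein. Its hairpin has a GC share of 54.3%, and capitals mark the mature strand.
MIR604 hairpin: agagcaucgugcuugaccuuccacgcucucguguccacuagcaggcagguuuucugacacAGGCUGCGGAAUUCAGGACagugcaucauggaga
MIR604 read 6.61, 6.38 and 6.53 on the mimic arrays, 6.02, 5.97 and 6.09 on the negative control arrays, and 6.08, 6.08 and 6.18 on the mock arrays. All 3 mimic arrays lay above all 6 others, and the negative control and mock arrays overlapped. The means were 6.51 ± 0.12 with mimic, 6.02 ± 0.06 with negative control and 6.11 ± 0.06 in mock (SD, n = 3 each). The mimic-minus-negative-control difference was 0.48 ± 0.08 (SE; 95% confidence interval 0.31 to 0.66), a 1.40-fold higher intensity with limma adjusted p = 0.0379. This call did not survive leaving out any mimic or negative control array (adjusted p between 0.0554 and 0.134) or mock replicate 1 or 2 (0.0649 and 0.0725). It passed in 6 of 17 alternative settings, with an adjusted p between 0.0106 and 0.155 over all of them.

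The probeset of SVIL moved the same way without passing. SVIL read 6.87, 6.82 and 6.78 on the mimic arrays, 6.49, 6.49 and 6.37 on the negative control arrays, and 6.48, 6.12 and 6.43 on the mock arrays. As for MIR604, all mimic arrays lay above all others. The difference from negative control was 0.37 ± 0.10 (SE, adjusted p = 0.149) and that from mock 0.48 ± 0.10 (adjusted p = 0.109).

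**Figure D3:**
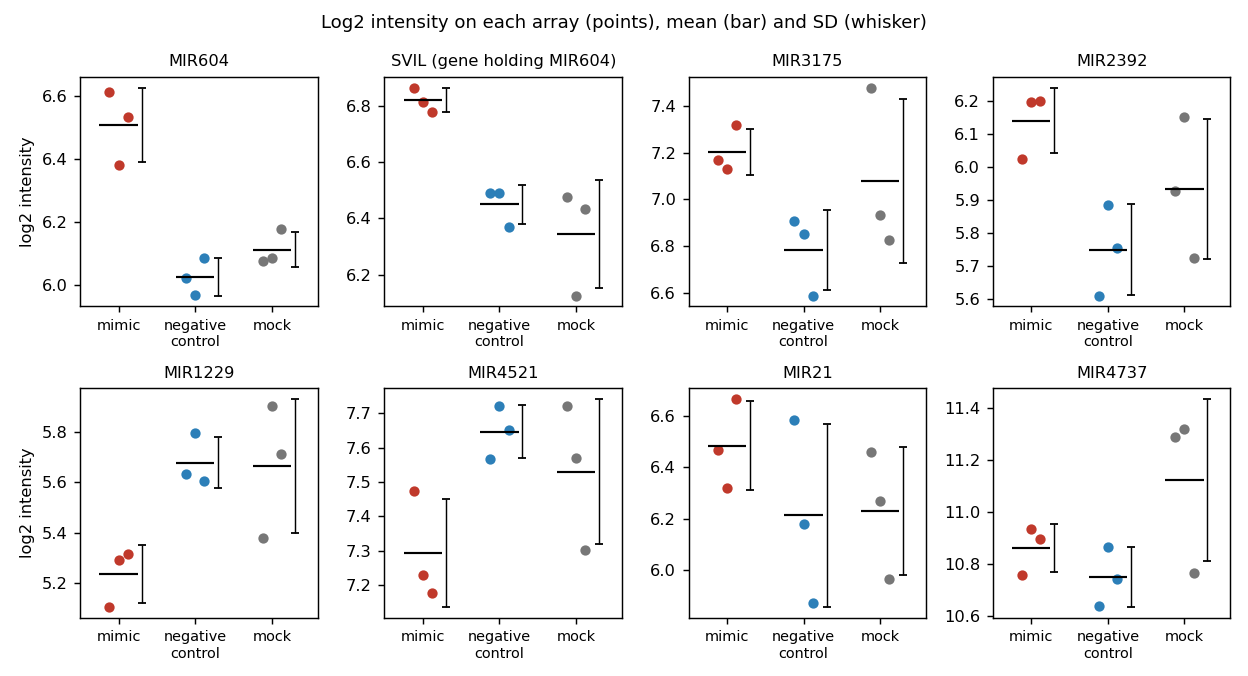
Log2 intensity on each array (points; y axis) for 7 microRNA genes and SVIL, with mimic, negative control and mock along the x axis (3 arrays each), the group mean as a bar and the SD as a whisker; the y axes differ and do not start at 0. In MIR604 and in SVIL the 3 mimic points lie above the other 6, while in MIR21 and MIR4737 the groups overlap.

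In 27 genes of the set the mimic and negative control arrays did not overlap, 17 higher and 10 lower with mimic (10.2%, against 16.4% of all genes, with 8.42% higher and 8.01% lower). The 5 with the highest differences among these were MIR4742 (0.49 ± 0.21, adjusted p = 0.387), MIR604, MIR3135A (0.44 ± 0.28, 0.556), MIR3175 (0.42 ± 0.16, 0.327) and MIR2392 (0.39 ± 0.12, 0.213), each with its SE. MIR3175 read 7.17, 7.13 and 7.32 on the mimic arrays, 6.91, 6.85 and 6.59 on the negative control arrays, and 7.48, 6.93 and 6.82 on the mock arrays. One mock array was the highest of all 9, so the mimic arrays stood apart from negative control alone. It lies in CHD2, a chromatin remodelling enzyme, whose own difference was 0.34 ± 0.07 (SE, adjusted p = 0.0797).

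Among the 10 lower genes without overlap, the lowest differences were those of MIR1229 (-0.44 ± 0.13, adjusted p = 0.196), MIR1204 (-0.44 ± 0.15, 0.257), MIR151B (-0.39 ± 0.15, 0.341), MIR4450 (-0.38 ± 0.15, 0.331) and MIR4521 (-0.35 ± 0.12, 0.258). MIR1229, which lies in the glycosyltransferase gene MGAT4B, read 5.10, 5.29 and 5.32 on the mimic arrays, 5.63, 5.80 and 5.61 on the negative control arrays, and 5.38, 5.90 and 5.71 on the mock arrays. Its mimic arrays were below all 6 others. MIR4521 read 7.47, 7.23 and 7.18 on the mimic arrays, 7.57, 7.72 and 7.65 on the negative control arrays, and 7.72, 7.57 and 7.30 on the mock arrays, and there the mimic and mock arrays overlapped. Another probeset with the symbol MIR4521 had a mean of only 2.25, beside 7.49 for the probeset used.

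The differences of the set as a whole lay slightly above 0. The median difference from negative control was 0.07, beside 0.01 for all genes and 0.03 for the dimmer microRNA genes. The difference was above 0 in 174 of the 266 genes (65.4%), against 53.4% of all genes. The median deviation of the set from each gene's own mean was 0.04, 0.03 and 0.02 on the mimic arrays, -0.02, 0.01 and -0.04 on the negative control arrays, and 0.01, 0.04 and -0.01 on the mock arrays. The SD of these medians between replicates was 0.0226. With each array centred on its median over all probesets, the median difference was 0.04 for the set and -0.02 for all genes, with 60.2% of the set and 45.2% of all genes above 0.

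**Figure D4:**
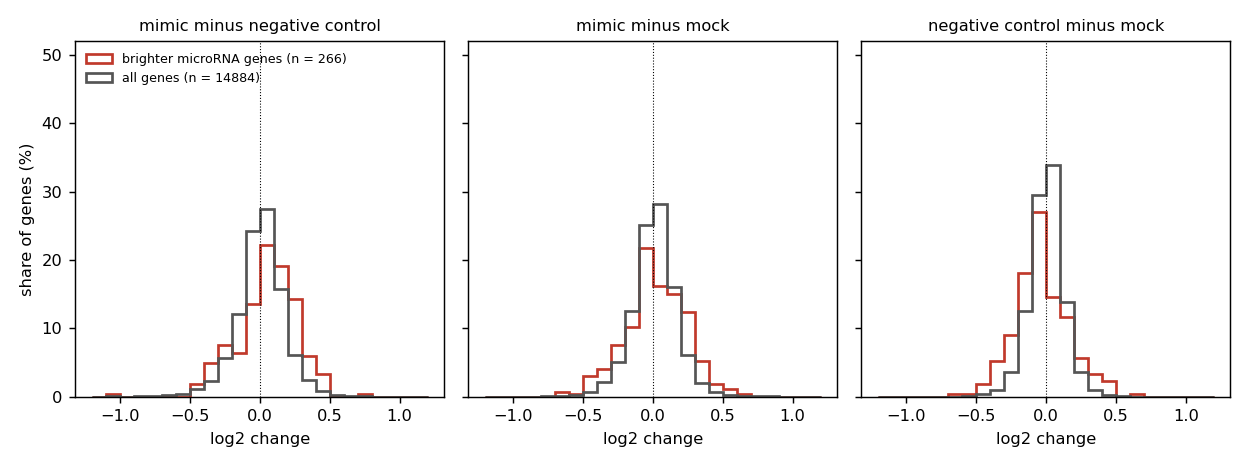
Share of genes in percent (y axis) by log2 difference (x axis) in 3 panels, mimic minus negative control, mimic minus mock, and negative control minus mock, for the brighter microRNA genes (red, n = 266) and all genes (grey, n = 14884). The red outline is the wider in each panel, and its median is 0.07, 0.01 and -0.04 in the order of the panels.

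Differences of host genes and of the microRNA probesets inside them were weakly related. Over the 88 pairs the mimic-minus-negative-control differences had a Spearman correlation of 0.27, and the sign was shared in 58 pairs. The points share arrays and, for some, a host. None of the 82 hosts passed limma's test in this or the other 2 comparisons, and against negative control their differences ran between -0.37 and 0.37. For mimic minus mock the correlation was 0.13 with the sign shared in 49 pairs, and for negative control minus mock it was 0.15 with the sign shared in 42.

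**Figure D5:**
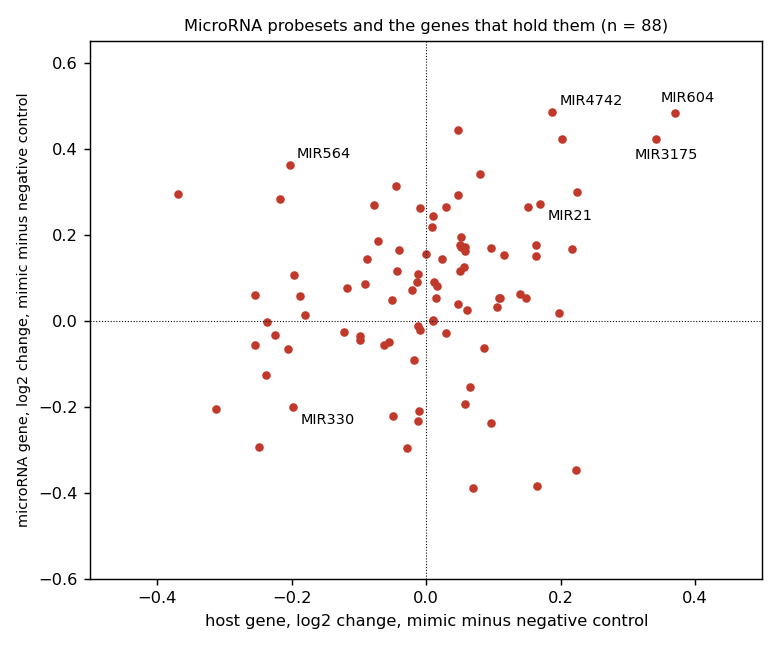
Log2 difference, mimic minus negative control, of 88 microRNA probesets (y axis) against that of the gene that holds each (x axis); dotted lines mark 0. MIR604 and MIR3175 lie at the upper right with SVIL and CHD2, and MIR564 lies above 0 where its host KIF15 lies below; of these genes MIR604 alone passed the test.

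The comparison of mimic with mock adds the delivery of RNA to the change of interest, and it shares the mimic arrays with the comparison above. None of the 266 genes passed (0 of 266, against 0.302% of all genes in limma's test, with 0.168% higher and 0.134% lower), and the lowest adjusted p, 0.101, was that of MIR604 with a difference of 0.40 ± 0.08 (SE). With dim genes left out before adjustment, MIR604 passed here too (adjusted p = 0.0343). At an unadjusted p under 0.05 there were 23 genes of the set (8.65%), against 10.7% of all genes. In 26 the arrays did not overlap, 16 higher and 10 lower with mimic (9.77%, against 12.7% of all genes, with 7.21% higher and 5.44% lower).

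Among those 26, the highest differences from mock were those of MIR570 (0.55 ± 0.18), MIR4314 (0.47 ± 0.16), MIR1913 (0.42 ± 0.19), MIR644A (0.40 ± 0.13) and MIR604. MIR570 read 9.22, 9.38 and 9.43 on the mimic arrays, 8.61, 9.20 and 9.13 on the negative control arrays, and 8.46, 8.84 and 9.08 on the mock arrays. Its mimic arrays were the 3 highest of the 9, and the difference from mock had an adjusted p of 0.317. MIR644A, inside the ubiquitin ligase gene ITCH, read 7.72, 7.91 and 7.90 with mimic, 7.35, 7.73 and 7.65 with negative control, and 7.47, 7.22 and 7.65 in mock (adjusted p = 0.307). There the mimic arrays overlapped with negative control and not with mock.

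The lowest among the 26 were MIR4748 (-0.69 ± 0.20), MIR4526 (-0.43 ± 0.34), MIR1229 (-0.43 ± 0.13), MIR330 (-0.42 ± 0.12) and MIR4757 (-0.41 ± 0.14). MIR4748, inside the dynamin gene DNM2, read 5.09, 5.74 and 4.91 on the mimic arrays, 5.48, 5.64 and 5.28 on the negative control arrays, and 6.14, 5.80 and 5.88 on the mock arrays. The mock arrays were above all 6 arrays with transfected RNA, and the adjusted p against mock was 0.232 for mimic. MIR1229 was the only gene named among the lowest in both mimic comparisons, and its adjusted p against mock was 0.26. The median difference from mock was 0.01 for the set and 0.01 for all genes, with 140 of the 266 above 0 (52.6%, against 53.9%).

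The comparison of negative control with mock measures the delivery of a non-specific RNA. None of the 266 genes passed in limma's test, and 0 of all 14884 genes did (0%). At an unadjusted p under 0.05 there were 20 genes of the set (7.52%), against 622 of all genes (4.18%). The lowest adjusted p in the set was 0.976. In 15 genes the arrays did not overlap, 4 higher and 11 lower with negative control (5.64%, against 8.1% of all genes, with 4.77% higher and 3.33% lower).

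The highest of those were MIR1269B (0.68 ± 0.27), MIR623 (0.31 ± 0.13) and MIR3160-1 (0.27 ± 0.18), and the lowest MIR4748 (-0.47 ± 0.20), MIR4500 (-0.44 ± 0.14) and MIR513A2 (-0.36 ± 0.11). Another probeset with the symbol MIR3160-1 had a mean of 4.80, beside 5.97 for the probeset used. MIR4500 read 6.76, 6.33 and 6.11 on the mimic arrays, 6.27, 6.42 and 6.41 on the negative control arrays, and 6.73, 6.79 and 6.90 on the mock arrays. MIR513A2 read 5.92, 5.80 and 6.01 with mimic, 6.02, 5.79 and 5.88 with negative control, and 6.14, 6.49 and 6.14 in mock. In MIR513A2 the mock arrays were above all others, while in MIR4500 1 mimic array reached the mock level. The median difference was -0.04 for the set and 0.01 for all genes, with 101 of the 266 above 0 (38.0%, against 52.8%). The differences of the set had a Spearman correlation with hairpin GC share of 0.05 for mimic minus negative control, -0.15 for mimic minus mock and -0.26 for negative control minus mock (n = 223 genes, which share the arrays).

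The 241 genes with a mature sequence had 346 mature strands with 318 distinct seeds, so most seeds stood alone. In all, 21 seeds were shared, by 43 of the genes. The largest group had the let-7 seed, of a family known for restraining growth-promoting genes such as RAS and HMGA2. The strands are shown because outside the capitals they differ.
miR-98-5p: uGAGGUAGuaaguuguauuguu
let-7a-5p: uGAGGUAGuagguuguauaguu
let-7e-5p: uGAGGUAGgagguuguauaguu
miR-4500: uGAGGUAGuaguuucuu
MIR98 had a mean of 6.94, MIR4500 of 6.53, MIRLET7A3 of 6.04 and MIRLET7E of 5.59. MIR98 read 6.96, 6.96 and 6.91 with mimic, 6.96, 6.91 and 6.87 with negative control, and 6.96, 7.02 and 6.96 in mock, and its SD over the 9 arrays, 0.042, was the smallest of the set. The reading of 6.96 was an exact repeat on 5 arrays, so the small SD is in part that of repeated values. None of the 4 passed in any comparison.

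The miR-181 seed was held by MIR181B1 (7.78), MIR181D (5.89) and MIR181C (5.36), and the seed of miR-15 and miR-16, known for restraining the cell cycle and BCL2, by MIR15A (5.48), MIR424 (5.34) and MIR16-2 (5.27). The seed of MIR25 (6.11) was shared with MIR92B (6.12) and MIR32 (5.23). MIR21 (6.31) shared its seed with MIR590 (6.05).
miR-181b-5p: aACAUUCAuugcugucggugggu
miR-181d-5p: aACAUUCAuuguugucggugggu
miR-181c-5p: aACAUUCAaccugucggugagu
miR-15a-5p: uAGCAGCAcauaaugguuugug
miR-16-5p: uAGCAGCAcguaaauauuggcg
miR-21-5p: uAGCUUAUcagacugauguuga
miR-590-5p: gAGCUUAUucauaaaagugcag
These strands are shown as the families that hold the better-known members of the set. The miR-181b and miR-181d strands matched at 22 of 23 bases, counted from the 5′ end without gaps.

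Genes that encode the same mature strand still had probesets with different readings. MIR365A on chromosome 16 and MIR365B on chromosome 17 give the same 3p strand.
miR-365a-3p: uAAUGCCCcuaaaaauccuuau
miR-365b-3p: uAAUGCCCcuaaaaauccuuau
MIR365A read 5.74, 6.37 and 6.59 on the mimic arrays, 5.66, 6.19 and 6.50 on the negative control arrays, and 5.88, 4.99 and 6.13 on the mock arrays. MIR365B read 5.52, 5.50 and 5.26 on the mimic arrays, 5.77, 5.74 and 5.60 on the negative control arrays, and 5.57, 5.34 and 5.57 on the mock arrays. Readings of MIR365A differed by more than a log2 unit between mock arrays, while those of MIR365B stayed close together. MIR3689D1 and MIR3689D2 on chromosome 9 also share a strand, and their means were 6.98 and 5.90.

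Neighbouring genes formed 10 groups (within 10 kb on the same strand) with 25 of the 266 genes. The largest held 5 MIR3689 genes on chromosome 9, and the next held MIR539, MIR134, MIR668 and MIR541 in the imprinted microRNA cluster of chromosome 14. In the MIR3689 group the mimic-minus-negative-control difference was -0.34 for MIR3689F and between 0.06 and 0.29 for the other 4. The mimic-minus-negative-control differences in the chromosome 14 group were 0.32, 0.35, 0.14 and 0.08, in that order. MIR25 and MIR106B, which lie together in MCM7, a subunit of the replicative helicase, differed by -0.03 and -0.05. None of these passed.

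Of 36 microRNAs in the list named epithelial and breast, 28 were measured and 9 were in the set. These were MIR210 (7.60), induced in low oxygen, MIR375 (6.45), high in estrogen receptor-positive tumours, MIR21 (6.31), a microRNA raised in many cancers, MIR26B (6.25), MIR25 (6.11), MIR365A (6.0), MIR205 (5.78), an epithelial microRNA, MIR342 (5.46) and MIR106B (5.40). None of the 28 passed in any comparison, and their median differences were 0.05 for mimic minus negative control, 0.06 for mimic minus mock and -0.0021 for negative control minus mock. Others in this list had dim probesets, such as MIR182 (3.10), MIR183 (2.89) and MIR96 (2.54). Of 22 microRNAs listed for other cell types, 18 were measured at 2.01 to 4.98 and 0 were in the set. Over all microRNA genes measured the share in the set was 24.8%, and no test compared the lists. Whether the members of either list are specific to the cells it names was not tested, so these counts do not show cell identity.

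MIR210 was the steadiest of the 9. It read 7.64, 7.57 and 7.54 with mimic, 7.57, 7.61 and 7.52 with negative control, and 7.74, 7.62 and 7.59 in mock. MIR21 read 6.47, 6.32 and 6.67 with mimic, 6.59, 6.18 and 5.87 with negative control, and 6.46, 6.27 and 5.97 in mock. Its difference from negative control, 0.27 ± 0.18 (SE, adjusted p = 0.588), had a 95% confidence interval of -0.14 to 0.69. The interval for MIR210 was -0.14 to 0.18, so a change of a log2 unit lies outside both. MIR150, the gene of the microRNA that was supplied, had a mean of 4.12 and is not in the set. Its group means were 4.20 with mimic, 4.09 with negative control and 4.06 in mock. The mimic-minus-negative-control difference of MIR150 was 0.11 ± 0.19 (SE, limma adjusted p = 0.851). Whether this probeset can read the supplied mature strand was not tested.

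Messenger RNAs of the microRNA pathway were listed for comparison, and 9 of 20 were measured. Against negative control 0 passed, beside 0.551% of all genes. Against mock 1 was higher, TNRC6A, a scaffold of the silencing complex, at 8.04 ± 0.02 with mimic and 7.61 ± 0.06 in mock (SD, n = 3 each), a difference of 0.44 ± 0.06 (SE, limma adjusted p = 0.0359). Against negative control its difference was 0.35 ± 0.06 (adjusted p = 0.0509). Over the whole array 45 genes passed against mock (0.302%), and 1 to 10 did with 1 replicate left out. Whether TNRC6A stayed among them was not examined. DGCR8, the partner of the enzyme that cuts the hairpin free, and XPO5, which exports it from the nucleus, did not pass in any comparison.

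The luminal label of the cells was met by 7 of 8 listed markers that were measured, at 6.95 to 12.1. Leukocyte markers (2 of 4 measured) lay at 3.18 to 3.33, endothelial markers (2 of 3) at 2.84 to 3.54 and the 1 measured fibroblast marker of 4 at 2.39. The arrays had medians between 4.22 and 4.27 over all probesets.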

How the data were processed

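The authors deposited log2 intensities of 53617 probesets for 9 arrays, made with RMA per the submitters' processing notes; no source used here gives its version or the annotation build. The platform table named 16098 probesets with 1 gene symbol and left 37519 unnamed; all gene IDs matched RefSeq. From these values the probeset with the highest mean was kept for each of 14884 symbols. The 3 groups were compared with limma 3.58.1 in R 4.3.3 (lmFit and eBayes, 1 mean for each group, all 9 arrays, two-sided), adjusted by Benjamini-Hochberg over all genes at 0.05. An exact permutation test of 3 against 3 arrays cannot go below 0.1. The fit was tested on simulated data. The genes and lists were chosen with earlier results of these data known. Genes were named where they had 1 of the 12 highest means, passed a test, had the most extreme differences without overlap (5 each way against either control, 3 each way between controls), lay beside the threshold, shared a seed or a cluster, stood in a list, or had 1 of the 5 largest SDs; exceptions chosen after their values were seen were MIR1908, MIR620, MIR1237 and MIR564. Precision is limited by the number of arrays. Alternatives covered normalization, filters, probeset choice, the fit and left-out replicates.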

Additional observations from a re-analysis of the deposited data

How the results depend on the processing

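The number of genes in the set was 345 at a threshold of 4.5, 122 at a threshold of 6 and 259 with the mean of all probesets of a symbol. MIR604, the 1 gene of the set called against negative control, was lost (0 called) with only the 6 arrays of those groups, with the replicate number as a block and with all probesets tested, where adjusted p was 0.0968, 0.0587 and 0.155. The genes called over the whole array, 82 for mimic against negative control, became 8 with 6 arrays, 16 with the replicate block, 263 with dim genes left out, 6 with all probesets tested and 169 with a trended, robust variance prior. For mimic against mock, 45 became 1, 3, 102 and 3 under the first 4 of these, and 1 gene of the set, MIR604, passed with dim genes left out. Leaving out 1 replicate at a time gave 0 to 1 genes of the set and 7 to 121 of all genes against negative control, and 0 and 1 to 10 against mock. Every array but mock replicate 3 moved the count against negative control by over 1.5 times, and every array that against mock. The median difference of the set then ran between 0.0547 and 0.0996 (mimic minus negative control), -0.0065 and 0.0438 (mimic minus mock) and -0.0736 and -0.0118 (negative control minus mock). The extremes came without negative control replicate 2 (0.0996) and mock replicates 2 (0.0438 and -0.0118) and 3 (-0.0736); without negative control replicate 3 the last was -0.0179. With each array centred on its median, the first was 0.0387, with all genes at -0.0178; with quantile normalization, the second was -0.0153, with all genes at -0.0109. Of 453 alternative values for 27 named differences, 441 kept direction and call, 11 lost the call, 1 gained it and 0 changed sign; these had been named for large differences without overlap. Over all 266 genes, 1 or more alternatives changed the sign of 119 for mimic minus negative control, of 116 for mimic minus mock and of 136 between the 2 controls. The cause of these changes was not tested. Deviations of same-numbered arrays correlated at -0.06 to 0.13 over all genes, with 2 of 9 over 0.1. For other-numbered arrays the range was -0.18 to 0.16, with 1 of 18 over 0.1, so the numbers were not taken to pair the samples. Over the 266 genes alone, same-numbered arrays correlated at -0.03 to 0.32, with 5 of 9 over 0.1. Among these 5 were all 3 pairs of mimic and negative control (0.117, 0.120 and 0.223). Other-numbered arrays there correlated at -0.34 to 0.24, with 5 of 18 over 0.1. For dim or noisy probesets the number of arrays limits what a difference can show.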
